A study of Homo sapiens with 6 samples.

Results

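HMGA2 is an architectural protein of the high mobility group A family whose AT-hooks bind AT-rich DNA in the minor groove. By bending DNA and shaping chromatin it alters how other factors reach their targets, and in cancer cells it is known for its links with mesenchymal traits. MDA-MB-231 is a human triple-negative breast cancer cell line of mesenchymal character, in which stable knockdown of a gene with short hairpin RNAs is a common way to ask what the gene controls. When 2 hairpins against the same transcript are used, genes that follow the loss of the target would be read from changes that both lines share. The genes described here are those that moved in opposite directions in the 2 knockdown lines.

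A gene belonged to this group when its mean CPM (the count divided by the library total, times 1000000) plus 0.2 was at least 2-fold that of the control in either knockdown line and at most 0.5 of it in the other, with 20 or more counts in both libraries of at least a single line. The 72 genes were thus chosen by the very ratios given below, which are a description and carry no test. They came from 61806 genes in the table, of which 14041 met the count minimum. Of the 72, 33 were higher in shHMGA2-1 and lower in shHMGA2-2, and 39 were lower in shHMGA2-1 and higher in shHMGA2-2.

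The 6 libraries were 2 each of 3 stable MDA-MB-231 lines: shNC, described in the labels as a control vector line, and shHMGA2-1 and shHMGA2-2, which carried different hairpins against HMGA2. The knockdown lines were made with lentivirus and puromycin, and by the study's methods a stable line was grown from a single clone after limiting dilution. Whether this also held for shNC was not given. A hairpin and the clone that carries it cannot be told apart. Libraries titled shNC carry WT in their library names, and those titled shHMGA2-1 carry SH2, and the titles were followed here. Whether the control was a vector line or untransduced parental cells is thus uncertain, and in the latter case each ratio would also hold the difference between transduced and untransduced cells. No label gives separate cultures for the 2 libraries of a line, so the spread between them may be technical. Values with ± are means and SD of 2 libraries. Counts are listed as replicate 1 and replicate 2, and where no line is named they follow the order shNC, shHMGA2-1, shHMGA2-2.

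Library totals ran from 16461178 to 17167293 counts, and a count of 0 allows up to 3 counts, or 0.175 to 0.182 CPM. HMGA2 itself had 2126 and 2161 counts in the control, 858 and 989 in shHMGA2-1, and 435 and 482 in shHMGA2-2, so both knockdown lines lay below the control and shHMGA2-2 was the lower. Its level was 126 ± 1.43 CPM in shNC, 53.9 ± 5.5 in shHMGA2-1 and 27.7 ± 1.86 in shHMGA2-2, a log2 ratio of -1.23 and -2.18. All 14 markers of mesenchymal triple-negative cells were above the floor of 3 counts, with a summed level of 8310 to 8480 CPM in shNC, 7390 to 7520 in shHMGA2-1 and 7110 to 7140 in shHMGA2-2. Of these markers, S100A4 is a member. Of 15 luminal markers, PGR, TFF1, TFF3 and SPDEF were at or under the floor, and the sums were 353 to 360, 348 to 404 and 479 to 519 CPM. Of 15 leukocyte markers 11 were at or under the floor, with sums of 1.53 to 2.0, 0.584 to 1.34 and 0.784 to 1.94 CPM. Of 11 stromal markers 7 were, with sums of 6.6 to 8.07, 14.3 to 18.9 and 11.8 to 12.4 CPM and PDGFRB as the member among them. Endothelial markers summed to 170 to 174 CPM in shNC, 118 to 135 in shHMGA2-1 and 13.6 to 15.9 in shHMGA2-2, and neural and melanocytic markers to 34.5 to 35.6, 43.6 to 47.8 and 23.8 to 26.2 CPM. The part of other cell types in the results was not tested.

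Promoter sequence is shown for members with many reads in each direction, as examples of the stretches compared over all members further on. Each is the 250 bases before the RefSeq start in GRCh38.p14, on the strand of the gene. Capitals mark TGACTCA, the AP-1 site, and TATAAA, the TATA box. INHBB chr2:120345886-120346135 (+) and NR2F1 chr5:93582972-93583221 (+) belong to the genes higher in shHMGA2-1, and CXCL8 chr4:73740319-73740568 (+), LAMB3 chr1:209652426-209652675 (-) and THBS1 chr15:39580829-39581078 (+) to those higher in shHMGA2-2. The span of CXCL8 in the deposited table opens at 73740519, within the stretch printed, while the other 4 genes begin at the base next to theirs.
INHBB: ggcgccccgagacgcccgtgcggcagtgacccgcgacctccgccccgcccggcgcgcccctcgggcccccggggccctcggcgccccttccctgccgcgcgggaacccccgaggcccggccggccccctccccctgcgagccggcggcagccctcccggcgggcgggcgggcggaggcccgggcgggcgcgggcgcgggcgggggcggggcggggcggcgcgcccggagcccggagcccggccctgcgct
NR2F1: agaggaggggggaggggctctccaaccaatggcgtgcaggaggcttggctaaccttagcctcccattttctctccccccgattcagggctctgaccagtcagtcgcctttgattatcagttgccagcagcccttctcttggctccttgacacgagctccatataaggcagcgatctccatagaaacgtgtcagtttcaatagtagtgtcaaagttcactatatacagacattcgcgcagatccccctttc
CXCL8: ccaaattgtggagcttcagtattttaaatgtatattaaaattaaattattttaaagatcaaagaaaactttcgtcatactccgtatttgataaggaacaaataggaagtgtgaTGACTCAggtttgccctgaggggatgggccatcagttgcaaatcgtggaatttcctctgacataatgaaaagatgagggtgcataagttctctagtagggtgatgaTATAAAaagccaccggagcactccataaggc
LAMB3: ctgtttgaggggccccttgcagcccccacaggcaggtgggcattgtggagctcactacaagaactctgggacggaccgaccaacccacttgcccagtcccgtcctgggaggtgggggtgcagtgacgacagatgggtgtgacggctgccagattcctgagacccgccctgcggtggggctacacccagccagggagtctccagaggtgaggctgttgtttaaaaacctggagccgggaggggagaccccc
THBS1: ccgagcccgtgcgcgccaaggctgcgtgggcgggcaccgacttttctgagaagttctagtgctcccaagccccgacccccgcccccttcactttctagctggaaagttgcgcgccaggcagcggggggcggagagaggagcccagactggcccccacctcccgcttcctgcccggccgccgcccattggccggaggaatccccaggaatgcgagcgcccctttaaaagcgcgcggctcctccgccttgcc
The INHBB stretch was 89.6% G or C with 46 CpG pairs. That of NR2F1 was 52.4% G or C with 8 CpG pairs. CXCL8 had the least G and C of these 5 stretches, 37.6%, with 4 CpG pairs, an AP-1 site 137 to 131 bases before the start and a TATA box 31 to 26 bases before it. LAMB3 had 64.0% and 8 CpG pairs, and THBS1 69.6% and 24.

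By the choice of members, they lie outside the main cloud of genes in the plot of line ratios. For the 33 genes higher in shHMGA2-1, the median log2 ratio to shNC was 1.27 in shHMGA2-1 (range 1.01 to 4.04) and -1.78 in shHMGA2-2 (-5.34 to -1.03). For the 39 genes higher in shHMGA2-2 it was -1.39 in shHMGA2-1 (-3.08 to -1.02) and 2.02 in shHMGA2-2 (1.02 to 8.66). The change in shHMGA2-2 was the larger in 53 of the 72, 25 of the first group and 28 of the second. Over all genes tested, too, more differed from shNC in shHMGA2-2 than in shHMGA2-1, as given below. Both ratios reached 4-fold in 6 genes, of which 2 were higher in shHMGA2-1 (ATP10A and INHBB) and 4 in shHMGA2-2 (CALB2, FOXRED2, IL24 and CDCP1).

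**Figure D1:**
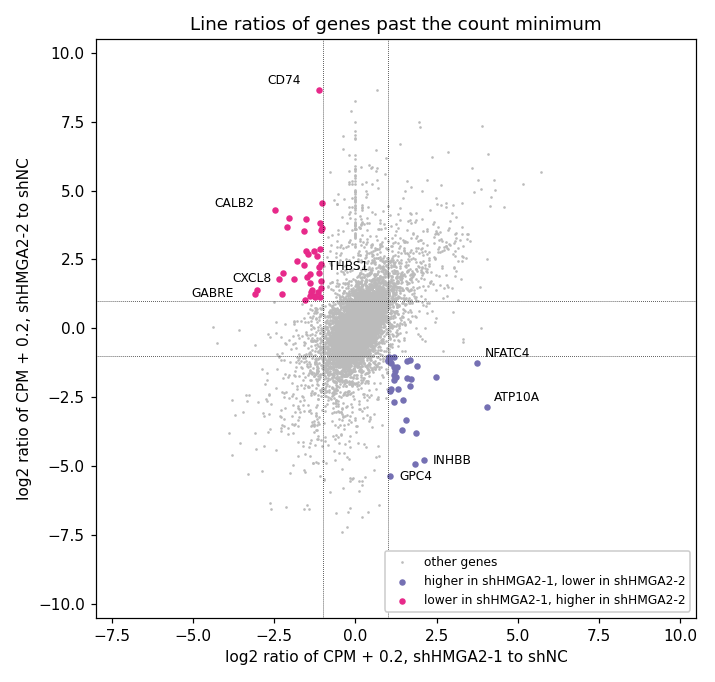
Each point is a gene that met the count minimum, placed by its log2 ratio of CPM plus 0.2 to shNC in shHMGA2-1 (x axis) and in shHMGA2-2 (y axis), and dotted lines mark 2-fold. The 33 genes higher in shHMGA2-1 lie at the lower right and the 39 genes higher in shHMGA2-2 at the upper left, with CD74 the uppermost member at 8.66 and GPC4 the lowest at -5.34.

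The rule asks for means only, so the libraries were looked at by themselves. In all 72 genes both libraries of each knockdown line lay on opposite sides of both shNC libraries in CPM, an arrangement that 12.9% of the 14041 genes past the count minimum showed. The same values chose the members, so this count follows largely from the choice. With edgeR's quasi-likelihood test over 16110 genes and a call at an adjusted p under 0.05 and 2-fold, 4.89% of genes were called higher and 3.59% lower in shHMGA2-1 against shNC, and 11.7% higher and 9.65% lower in shHMGA2-2. Since the rule used these contrasts, the 71 members called in shHMGA2-1 and the 71 called in shHMGA2-2 are a restatement of the choice. SHROOM4 was not called in shHMGA2-1 and GPR15 not in shHMGA2-2. The remaining 70 members were called in opposite directions in both lines, as were 0.49% of all genes tested, or 79 genes.

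The 9 opposite calls outside the group were PLEKHB1, VWA5A, EREG, TMOD1, KRT15, FAM9B, CIITA, HS3ST5 and ENSG00000275426, for each of which a ratio fell short of 2-fold or the counts were under 20. EREG, which encodes the growth factor epiregulin, had 61 and 75 counts in the control, 33 and 34 in shHMGA2-1, and 319 and 338 in shHMGA2-2. CIITA, the transactivator of MHC class II genes, had 39 and 25, 16 and 17, and 314 and 371 counts. These 9 were singled out after their values were seen.

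When the 4 knockdown libraries were taken as a single group against shNC, 3.09% of genes were called in either direction. None of the 72 was called by edgeR, and 0 of them had an unadjusted p under 0.05, against 25.5% of all genes tested. DESeq2 also called 0 of the 72, with 2 at an unadjusted p under 0.05. The choice of members leads to these counts. The fitted log2 difference of the pooled lines was above 0 in each member, from 0.03 for GPC4 to 8.25 for CD74. Its median was 0.45 for the 33 genes, 1.07 for the 39 and 0.04 for all genes tested. This sign also follows from the choice, since a line at 2-fold or more keeps the mean CPM of the 4 libraries at or above shNC.

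No member's ratio had a 95% interval that reached 1 in either line (exact, on summed counts, covering counting error only). Because the same counts chose the members, this too follows largely from the choice. Many members rest on few reads nonetheless. The highest library held fewer than 100 counts in 22 members, 15 of them higher in shHMGA2-1 and 7 in shHMGA2-2, and at least 1000 in 12, 3 in the first direction and 9 in the second. In 23 members both libraries of the lower line were at or under 3 counts, and in 8 both were at 0. The median absolute log2 difference between the 2 libraries of a line was 0.18 in shNC, 0.24 in shHMGA2-1 and 0.17 in shHMGA2-2 for members, against 0.1, 0.17 and 0.12 for all genes tested.

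Ligands among the genes higher in shHMGA2-1 included INHBB, which encodes the beta B chain of inhibins and activins, ligands of the TGF-beta family. INHBB had 352 and 386 counts in the control, 1657 and 1586 in shHMGA2-1, and 11 and 9 in shHMGA2-2. Thus it was 4.35-fold higher in shHMGA2-1 (95% interval 4.02 to 4.72) and 35.9-fold lower in shHMGA2-2 (23.1 to 59.1), and the knockdown lines differed 156-fold. PGF, placental growth factor, had 171 and 160, 545 and 445, and 10 and 16 counts, and was 2.96-fold higher and 12.4-fold lower. EDN1, the precursor of the vasoconstrictor peptide endothelin-1, was the member of this direction with the most reads in shNC. It had 839 and 917, 1839 and 1978, and 364 and 341 counts, which gives 51.7 ± 3.24 CPM in shNC, 111 ± 5.93 in shHMGA2-1 and 21.3 ± 1.1 in shHMGA2-2. Its shift was smaller than that of INHBB in both lines, with log2 ratios of 1.10 and -1.27.

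The opposite order was seen for a pair of cytokines. CXCL8, interleukin-8, which attracts neutrophils, had 775 and 757 counts in the control, 168 and 241 in shHMGA2-1, and 2529 and 2669 in shHMGA2-2. It was 3.78-fold lower in shHMGA2-1 (3.39 to 4.23) and 3.49-fold higher in shHMGA2-2 (3.29 to 3.69). IL24, a cytokine of the interleukin-10 family, had 18 and 36, 6 and 2, and 506 and 446 counts, a 123-fold difference between the knockdown lines. Its libraries in shNC and shHMGA2-1 were low, while those of shHMGA2-2 were high. SAA1, an acute-phase protein, was at 0 in both shHMGA2-1 libraries, with 6 and 5 counts in shNC and 23 and 25 in shHMGA2-2, and was therefore at least 1.85-fold lower in shHMGA2-1. Of the 100 growth factor, cytokine and chemokine genes tested, INHBB, EDN1, IL24 and CXCL8 were members by symbol, a list that did not cover the ligands PGF and EDA. In this list 14 genes were called higher and 19 lower in shHMGA2-1, and 26 higher and 31 lower in shHMGA2-2.

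**Figure D2:**
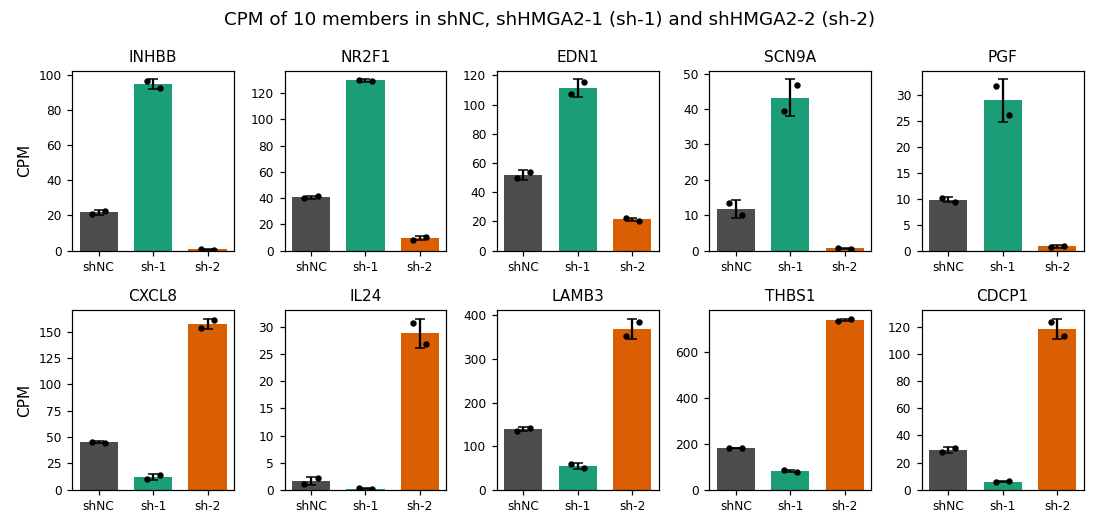
Bars are the mean CPM of 2 libraries in each line, error bars the SD and points the libraries, each panel with its own axis from 0. INHBB, NR2F1, EDN1, SCN9A and PGF are highest in shHMGA2-1 and lowest in shHMGA2-2, and CXCL8, IL24, LAMB3, THBS1 and CDCP1 have the reverse order.

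Receptors and surface proteins were found on both sides, with 3 of the 4 members of the receptor list higher in shHMGA2-2. CDCP1, a transmembrane protein phosphorylated by Src family kinases, had 474 and 522 counts in the control, 96 and 113 in shHMGA2-1, and 2038 and 1874 in shHMGA2-2. It was 4.81-fold lower (4.14 to 5.61) in the former and 4.04-fold higher (3.76 to 4.33) in the latter line, so its shifts were of like size. CD82, a tetraspanin known as a suppressor of metastasis, had 166 and 168, 26 and 34, and 560 and 594 counts, and was 5.62-fold lower and 3.55-fold higher. PDGFRB, the platelet-derived growth factor receptor beta, had 21 and 33, 10 and 9, and 53 and 70 counts. IL1RAPL1, a member of the interleukin-1 receptor family known from synapses, had 37 and 60, 1 and 5, and 132 and 124.

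CD74, the invariant chain of MHC class II molecules, was the member with the widest gap. It had 6 and 4 counts in the control, 0 and 1 in shHMGA2-1, and 3134 and 3449 in shHMGA2-2. The rise to 199 ± 12.4 CPM in shHMGA2-2 was 676-fold (368 to 1410), while the fall in shHMGA2-1 rests on a single count against 10 in shNC and was 10.1-fold with a counting interval of 1.44 to 438. HLA-DRA, an MHC class II chain and not a member, had 6 and 0 counts in the control, 1 and 4 in shHMGA2-1, and 1475 and 1494 in shHMGA2-2. CD74 was the only member among 95 interferon-stimulated and antigen presentation genes, of which 12 were called higher and 9 lower in shHMGA2-1, and 33 higher and 5 lower in shHMGA2-2.

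Among receptors higher in shHMGA2-1 was EPHA7, a receptor tyrosine kinase for ephrins, with 13 and 23 counts in the control, 37 and 55 in shHMGA2-1, and 3 and 6 in shHMGA2-2. Of the 192 receptor genes tested, EPHA7, IL1RAPL1, PDGFRB and CD74 were members. Called genes of this list numbered 25 higher and 26 lower in shHMGA2-1, and 45 and 43 in shHMGA2-2. GPC4, a cell surface heparan sulfate proteoglycan, had 150 and 160, 308 and 360, and 0 and 1 counts. Its rise in shHMGA2-1 was 2.13-fold (1.86 to 2.45), and in shHMGA2-2 it was nearly gone, with a ratio of 302 and a counting interval of 53.8 to 12000.

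G protein-coupled receptors and their regulators gave PTGFR, the receptor of prostaglandin F2-alpha, higher in shHMGA2-1, and RGS7, a regulator of G protein signalling, and GPR15, a receptor known for guiding T cells, higher in shHMGA2-2. PTGFR had 42 and 26 counts in the control, 80 and 65 in shHMGA2-1, and 14 and 12 in shHMGA2-2. RGS7 had 6 and 6, 0 and 2, and 61 and 68, so that its fall rests on 2 counts, a 6.06-fold ratio with an interval of 1.35 to 55.7. GPR15 had 42 and 41, 11 and 13, and 99 and 71. The list held 141 genes tested, 12 called higher and 17 lower in shHMGA2-1, and 25 and 31 in shHMGA2-2.

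The 4 members in the list of matrix and matricellular proteins all had the same order. The secreted glycoprotein OLFML3 and the proteoglycan GPC4, which that list did not cover, had the reverse order. THBS1, thrombospondin-1, a matricellular glycoprotein that restrains angiogenesis, had 3072 and 3086 counts in the control, 1486 and 1353 in shHMGA2-1, and 12097 and 12310 in shHMGA2-2. It went from 181 ± 0.54 CPM in shNC to 82.8 ± 5.34 and 738 ± 5.11 CPM, 2.19-fold lower (2.09 to 2.29) and 4.07-fold higher (3.96 to 4.19). LAMB3, the beta 3 chain of laminin-332 in epithelial basement membranes, had 2307 and 2411, 1029 and 859, and 5808 and 6398 counts, and was 2.52-fold lower and 2.66-fold higher. These were the members with the most reads.

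EFEMP1, the matrix glycoprotein fibulin-3, had 237 and 240 counts in the control, 94 and 86 in shHMGA2-1, and 906 and 940 in shHMGA2-2. COL17A1, a transmembrane collagen of hemidesmosomes, had 64 and 77, 27 and 38, and 246 and 221. Of the 87 matrix and matricellular genes tested, these 4 were members, 4.6% against 0.447% of all genes tested. The list as a whole did not have this order, with 15 genes called higher and 11 lower in shHMGA2-1, and 22 higher and 24 lower in shHMGA2-2. ADAMTS6, a secreted metalloprotease, was the sole member among 101 protease and inhibitor genes. It had 43 and 41, 14 and 10, and 518 and 504 counts, 3.53-fold lower and 12.5-fold higher. By symbol the list did not cover the proteases PAPPA2 and OVCH2, members that were higher in shHMGA2-1 and lower in shHMGA2-2. This list had 15 higher and 10 lower calls in shHMGA2-1, and 28 and 17 in shHMGA2-2. None of 134 cell adhesion genes was a member (21 higher and 15 lower in shHMGA2-1, 33 and 31 in shHMGA2-2). Nor was any of 41 keratin and epithelial junction genes (4 and 4, then 14 and 7), a list that did not cover COL17A1.

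Of the 4 members that encode ion channels, 3 were higher in shHMGA2-1. SCN9A, the voltage-gated sodium channel Nav1.7 of pain-sensing neurons, had 229 and 169 counts in the control, 678 and 802 in shHMGA2-1, and 13 and 9 in shHMGA2-2. It was 3.68-fold higher (3.29 to 4.12) and 17.6-fold lower (11.5 to 28.4). KCNJ8, the pore subunit of an ATP-sensitive potassium channel, had 15 and 6, 45 and 40, and 0 and 1 counts, and KCNK1, a potassium channel of the tandem pore domain family, had 74 and 59, 184 and 158, and 9 and 14. The exception was GABRE, the epsilon subunit of GABA-A receptors, with 46 and 55, 3 and 3, and 136 and 109 counts. GABRE was 17.0-fold lower in shHMGA2-1 (7.54 to 47.4) and 2.49-fold higher in shHMGA2-2 (1.97 to 3.17). Calls over the 131 ion channel genes were even, 12 higher and 12 lower in shHMGA2-1, and 26 and 28 in shHMGA2-2.

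ATP10A, a lipid flippase of the plasma membrane, was the member of this direction whose smaller shift was the largest. It had 9 and 33 counts in the control, 399 and 405 in shHMGA2-1, and 0 and 0 in shHMGA2-2. The 2 shNC libraries lay apart, yet each was below both shHMGA2-1 libraries, and without shNC replicate 2 the smaller of the absolute log2 ratios was 1.87 in place of 2.84. ATP10A was 19.0-fold higher in shHMGA2-1 (13.9 to 26.5) and at least 6.81-fold lower in shHMGA2-2, and the knockdown lines differed at least 129-fold. No other member was found among 332 solute carriers, ABC transporters and lipid flippases, a list that did not cover the member ATP6V0A4. Of these 332, 24 were called higher and 21 lower in shHMGA2-1, and 36 and 51 in shHMGA2-2. None of 295 small GTPases and their regulators was a member (23 and 12, then 39 and 52 calls). CYP1B1, a cytochrome P450 that hydroxylates estrogens, was the sole member of 203 lipid and steroid genes, with 214 and 245, 74 and 113, and 1592 and 1604 counts. That list had 14 and 13 calls in shHMGA2-1, and 30 and 42 in shHMGA2-2.

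Transcription factors included NR2F1, the orphan nuclear receptor COUP-TF1, which is known from neural development and tumour dormancy. NR2F1 had 674 and 703 counts in the control, 2237 and 2210 in shHMGA2-1, and 137 and 175 in shHMGA2-2. It was 3.2-fold higher (3.01 to 3.4) and 4.3-fold lower (3.8 to 4.87), with libraries of a line close together. PRDM6, a PR domain factor of smooth muscle, had 37 and 38, 81 and 83, and 26 and 3 counts. Its shHMGA2-2 libraries lay far apart, at 0.88 ± 0.989 CPM, and without replicate 2 of that line its smaller log2 ratio was 0.44 in place of 1.05. NFATC4, a calcineurin-dependent factor, was at 6 and 6 counts in the control, 139 and 110 in shHMGA2-1, and 0 and 1 in shHMGA2-2, 20.5-fold higher (11.6 to 40.3) and 11.7-fold lower with an interval of 1.73 to 499.

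The 3 members with ZNF symbols were higher in shHMGA2-2. ZNF415 had 7 and 7 counts in the control, 2 and 1 in shHMGA2-1, and 149 and 132 in shHMGA2-2, ZNF418 had 31 and 37, 17 and 12, and 187 and 174, and the pseudogene ZNF818P had 38 and 35, 16 and 8, and 73 and 95. Genes of this family are alike in sequence, so how reads were shared among them is uncertain. By symbol, NR2F1, PRDM6 and these 3 were the members among 849 transcription factor genes, with 56 called higher and 36 lower in shHMGA2-1, and 135 and 72 in shHMGA2-2. NFATC4 was not covered by this list.

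**Figure D3:**
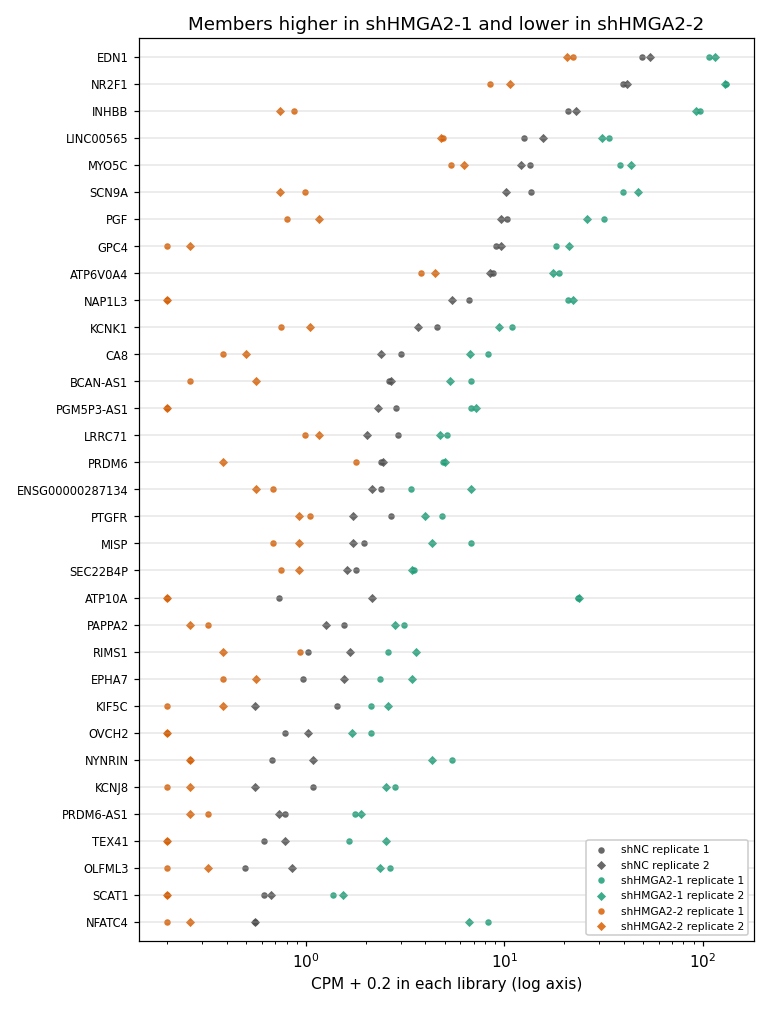
CPM plus 0.2 (log axis) of the 33 genes higher in shHMGA2-1 and lower in shHMGA2-2, ordered by their mean in shNC, with a point for each library. In each gene both shHMGA2-1 points lie right of both shNC points and both shHMGA2-2 points left of them, and points at 0.2 are libraries with no count.

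The other leading genes higher in shHMGA2-1 had diverse roles. NAP1L3, a nucleosome assembly protein family member, had 109 and 89 counts in the control, 358 and 375 in shHMGA2-1, and 0 and 0 in shHMGA2-2, and so was 3.67-fold higher and at least 32.1-fold lower. CA8, a carbonic anhydrase-related protein without catalytic activity, had 48 and 37, 139 and 112, and 3 and 5 counts. NYNRIN had 8 and 15, 90 and 71, and 1 and 1, and OLFML3, a secreted olfactomedin-like glycoprotein, had 5 and 11, 42 and 37, and 0 and 2. The lower side of the last pair thus rests on 2 counts each, with ratios of 11.2 (2.77 to 97.9) and 7.79 (1.83 to 69.8).

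Noncoding members mostly had few reads. LINC00565 had the most reads of those higher in shHMGA2-1, with 209 and 263 counts in the control, 578 and 531 in shHMGA2-1, and 78 and 76 in shHMGA2-2. PGM5P3-AS1 had 45 and 36, 113 and 120, and 0 and 0, and TEX41 had 7 and 10, 25 and 40, and 0 and 0. BCAN-AS1 had 41 and 42, 113 and 88, and 1 and 6, and PRDM6-AS1 had 10 and 9, 27 and 29, and 2 and 1. MIR3142HG, the host transcript of the microRNA gene MIR146A, had the reverse order, at 34 and 34, 4 and 11, and 184 and 210 counts. So had ENSG00000227706, a noncoding RNA without a symbol in the table, at 253 and 246, 91 and 86, and 1476 and 1675 counts. LINC00565, PGM5P3-AS1, BCAN-AS1, PRDM6-AS1 and MIR3142HG were the 5 members among 1010 long noncoding RNAs listed by symbol, a list that did not cover TEX41, SCAT1 and ENSG00000227706. Of the 1010, 59 were called higher and 44 lower in shHMGA2-1, and 180 and 114 in shHMGA2-2.

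**Figure D4:**
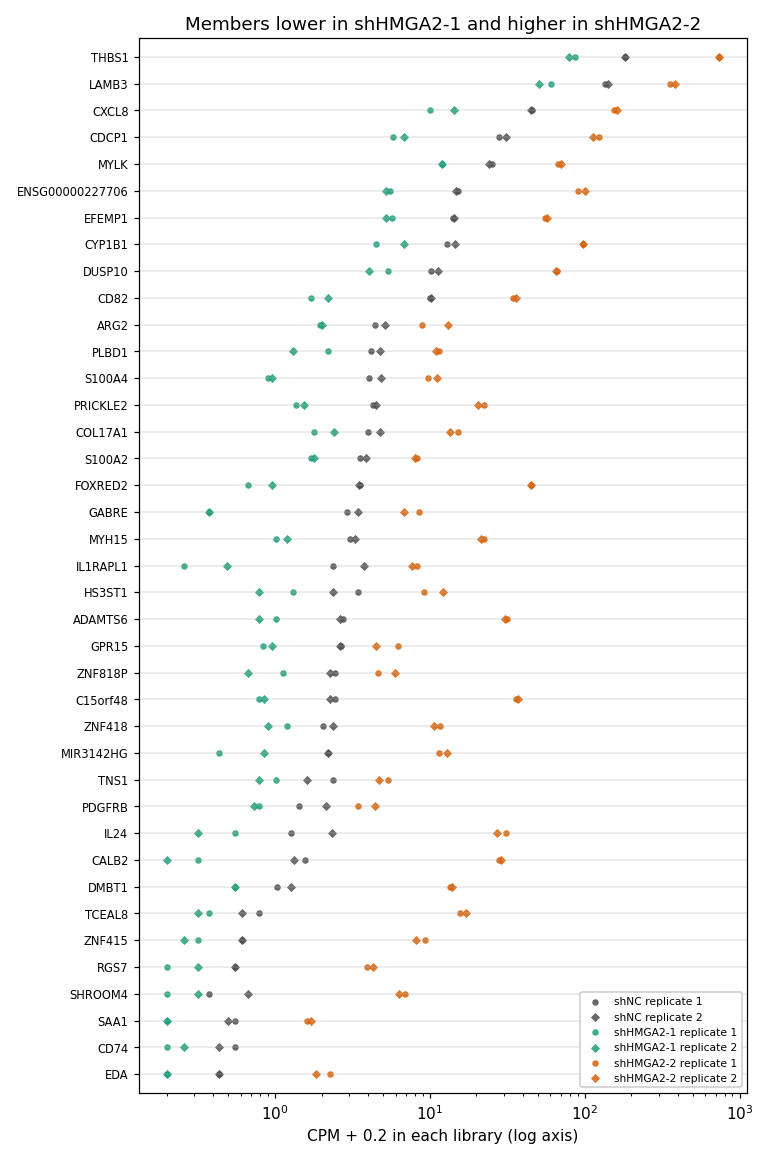
CPM plus 0.2 (log axis) of the 39 genes lower in shHMGA2-1 and higher in shHMGA2-2, ordered by their mean in shNC, with a point for each library. In each gene both shHMGA2-1 points lie left of both shNC points and both shHMGA2-2 points right of them, with the widest gap in CD74.

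Leading genes higher in shHMGA2-2 outside these lists began with CALB2, the calcium-binding protein calretinin. CALB2 had 23 and 19 counts in the control, 2 and 0 in shHMGA2-1, and 460 and 471 in shHMGA2-2, 22.8-fold higher in the latter (16.7 to 31.8) and 21.2-fold lower in the former with an interval of 5.52 to 181. FOXRED2, an oxidoreductase of the endoplasmic reticulum, had 57 and 56, 8 and 13, and 742 and 741 counts, 5.43-fold lower and 13.5-fold higher. Its shHMGA2-2 libraries were nearly equal. C15orf48, a small mitochondrial protein induced in inflammation, had 38 and 35, 10 and 11, and 588 and 615 counts.

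PRICKLE2, a planar cell polarity protein, had 69 and 73 counts in the control, 20 and 23 in shHMGA2-1, and 365 and 337 in shHMGA2-2. MYH15, a myosin heavy chain, had 48 and 52, 14 and 17, and 364 and 350, and HS3ST1, a heparan sulfate sulfotransferase, had 55 and 37, 19 and 10, and 147 and 198. The calcium-binding S100 proteins S100A4 and S100A2 moved alike. S100A4, linked with motility and metastasis, had 65 and 79, 12 and 13, and 157 and 182 counts, and S100A2 had 57 and 62, 26 and 27, and 132 and 129.

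The remaining members were named outside the rule for named genes, after their values were seen. On the side of shHMGA2-1 these were MYO5C, ATP6V0A4, KIF5C, MISP, RIMS1, PAPPA2, OVCH2, SCAT1, SEC22B4P and ENSG00000287134, beside GPC4. MYO5C, a class V myosin of vesicle transport, had the most reads of them, at 226 and 204 counts in the control, 657 and 740 in shHMGA2-1, and 85 and 101 in shHMGA2-2. On the side of shHMGA2-2 these were MYLK, DUSP10, PLBD1, ARG2, TNS1, DMBT1, EDA, TCEAL8, SHROOM4 and ENSG00000227706, beside SAA1. DUSP10, a phosphatase of the kinases p38 and JNK, had 168 and 189, 88 and 66, and 1092 and 1076 counts. MYLK, myosin light chain kinase, had 426 and 406, 202 and 201, and 1105 and 1159, and TCEAL8 went from 10 and 7 counts in shNC to 253 and 282 in shHMGA2-2 with 3 and 2 in shHMGA2-1.

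Near the threshold of 2-fold, a log2 ratio of 1, the members just inside were LRRC71, PTGFR and GPR15, whose smaller log2 ratios were 1.005, 1.007 and 1.016. Just outside were TRIML2 at 0.983, KRT15 at 0.981 and FEZF1 at 0.977. LRRC71 had 46 and 31 counts in the control, 85 and 78 in shHMGA2-1, and 13 and 16 in shHMGA2-2, and TRIML2 had 103 and 101, 228 and 186, and 34 and 28. Both sides of the threshold thus held genes with much the same pattern. With a single library left out, 26 members fell under 2-fold in a line, 13 in each direction, to smaller log2 ratios between 0.44 and 1.00. These were OLFML3, KIF5C, EPHA7, ENSG00000287134, OVCH2, PAPPA2, GPC4, ATP6V0A4, PRDM6, RIMS1, SEC22B4P, PTGFR and LRRC71 on the side of shHMGA2-1, and ARG2, ZNF818P, TNS1, PDGFRB, CD74, RGS7, ZNF415, ZNF418, DMBT1, COL17A1, SHROOM4, TCEAL8 and GPR15 on the side of shHMGA2-2. For CD74 the value was 0.93 without shNC replicate 1 and 0.94 without shHMGA2-1 replicate 1, and for SHROOM4 0.54 without shNC replicate 2.

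In shNC the members were expressed below most genes. The median level per length was 0.55 FPKM for the 33 genes and 0.73 for the 39, against 3.38 for all genes tested. Of the 72, 61 were protein coding (84.7%, against 79.3% of genes tested), 8 were long noncoding RNAs, 2 were pseudogenes and 1 was not matched. Median gene span was 56.2 kb and 37.6 kb in the 2 directions and 27.5 kb over all genes tested, while exonic size was alike at 4960, 4650 and 4800 bases. Chromosome 1 held 13 members (18.1%, against 10.1% of genes tested). Chromosomes 2, 5 and X held 7 each (9.72%, against 6.88%, 4.74% and 3.23%). Of those on the X chromosome, 2 were higher in shHMGA2-1 and 5 in shHMGA2-2. These chromosomes, which held the most members, were named after the values were seen.

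Medians over neighbouring genes mostly lay near those of all genes, with the neighbours of the 33 genes lower in shHMGA2-2. Over the 5 tested non-member genes on each side of a member, the median log2 ratio had a middle value of -0.01 in shHMGA2-1 and -0.35 in shHMGA2-2 around the 33 genes, of -0.05 and -0.02 around the 39, and of 0.01 and 0.02 over all genes tested. A neighbourhood median passed 2-fold around 0 and 1 of the 33 genes and around 1 and 4 of the 39, in shHMGA2-1 and shHMGA2-2, and around 20 and 467 of 16109 genes tested. Around ATP10A it was 0.13 and 0.08, around INHBB 0.18 and 0.15, and around CD74 0.16 and 0.13. Around GPC4 it was -0.22 and -1.10, and around THBS1 0.08 and 1.15, so that in these the neighbours lay on the side of the member in shHMGA2-2 and near 0 in shHMGA2-1. Around LAMB3, which rose in shHMGA2-2, it was -0.53 and -1.21.

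Within the group, 6 pairs of members lay within 500 kb of each other, and each pair had a single direction. Whether other genes pair up in this way as often was not tested. PRDM6-AS1 and PRDM6 overlap on opposite strands of chromosome 5. S100A4 (chr1:153543613-153550136) and S100A2 (chr1:153561108-153567890) lie 11.0 kb apart, and NFATC4 (chr14:24365673-24379604) and NYNRIN (chr14:24399003-24419283) 19.4 kb apart. ZNF415 and ZNF818P are 64.0 kb apart on chromosome 19, PDGFRB and CD74 246 kb on chromosome 5, and BCAN-AS1 and LRRC71 280 kb on chromosome 1. Coordinates are GRCh38 as in the deposited table.

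Reads of overlapping genes limit 16 members, 13 of which overlap a gene of the opposite strand with 20 or more counts. The strand setting of the counting is not given in the sources used here, so such reads cannot be told apart. The antisense gene NR2F1-AS1 had 364 and 384 counts in the control, 431 and 447 in shHMGA2-1, and 87 and 99 in shHMGA2-2, and followed NR2F1 in shHMGA2-2 (-1.93) far more than in shHMGA2-1 (0.22). ENSG00000287134 lies within DLC1 on the other strand, and DLC1 had 4110 and 3948, 4275 and 4366, and 855 and 856 counts, many times those of the member. FCMR, opposite IL24, had 29 and 27, 20 and 16, and 102 and 137. RMDN2, opposite CYP1B1, had log2 ratios of 0.25 and -0.13. S100A3, on the strand of S100A4, had 62 and 53, 12 and 14, and 61 and 70 counts, lower in shHMGA2-1 as S100A4 was and near shNC in shHMGA2-2.

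Promoters of protein-coding members were compared by sequence, with 23 of 25 and 31 of 36 genes matched to RefSeq in the 2 directions and 10459 of 12768 genes tested. The genes higher in shHMGA2-1 had a median of 66.8% G or C and 16.0 CpG pairs in 250 bases, and those higher in shHMGA2-2 56.4% and 9.0 pairs, against 65.2% and 21.0 pairs over all. At most 5 CpG pairs were found in 4 of 23 (17.4%), 11 of 31 (35.5%) and 8.85%. TATAAA, searched on both strands, was present in 1 of 23 (4.35%), 7 of 31 (22.6%) and 5.26%, the 7 being CXCL8, S100A4, MYH15, DMBT1, COL17A1, MYLK and GPR15. In CXCL8, S100A4, DMBT1 and GPR15 a copy lay about where a TATA box is usually found, from 31 to 26 bases before the start in the first and in S100A4, 29 to 24 in DMBT1 and 34 to 29 in GPR15. The RefSeq start lay over 1000 bases from the start of the gene's span in the deposited table in 6 of 23, 8 of 31 and 1619 of 10459 genes, among them S100A4 (4330 bases), MYH15 (18726) and MYLK (263784), so these stretches precede a start inside the span. Over the other 17, 23 and 8840 genes, TATAAA was present in 1 (5.88%), 4 (17.4%) and 4.92%, and at most 5 CpG pairs were found in 2 (11.8%), 6 (26.1%) and 6.72%, a restriction chosen after seeing the data.

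The AP-1 letters TGACTCA, on both strands, were in 1 of 23 (4.35%), 2 of 31 (6.45%) and 2.46%. AATATT, an AT-rich run of the sort that AT-hooks contact, was in 2 of 23 (8.7%), 0 of 31 and 2.69%. These counts of letters are a description of the sequence and show no binding.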

How the data were processed

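RNA of 6 MDA-MB-231 libraries was sequenced, 2 each of shNC, shHMGA2-1 and shHMGA2-2, grouped by sample title. The authors deposited whole-number counts per gene without normalization and FPKM values made from them. Recomputed from counts, exonic size and library total, 100% of FPKM values matched within 0.01. The submitters' processing notes list HISAT2 2.2.1, HTSeq 0.6.1 and GRCh38.p13, with roles and strand setting not given in the sources used here.

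Members were chosen by CPM ratios as the report states. The members and the 14 functional lists (by symbol) were chosen with earlier results of these data known. Counts were fitted with edgeR 4.0.16 in R 4.3.3 (TMM, filterByExpr, quasi-likelihood test, Benjamini-Hochberg adjustment over 16110 genes) in a model with 3 groups and, for the pooled comparison, 4 against 2 libraries. DESeq2 1.42.0, the tool the study names, was an alternative, as were other thresholds, added constants, count minimums, scalings, no filter, a replicate covariate and left-out libraries. Ratio intervals are exact at 95% on summed counts. A line at 0 was set to 3 counts per library for lower bounds. Biotypes came from GENCODE version 29 and promoters from RefSeq GRCh38.p14.

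Named genes were HMGA2, in each direction the 12 members whose smaller log2 ratio was largest, members in a list, the 3 nearest each side of the threshold, and member pairs, 50 members in all. The other 22 were added after their values were seen.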

Additional observations from a re-analysis of the deposited data

Results flagged for a closer look

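With a limit of 2-fold in each line, the ratios of the 2 knockdown lines to shNC differ in direction for 72 genes. In these, both libraries of shHMGA2-1 lie on the other side of both shNC libraries from both libraries of shHMGA2-2. Without that limit, this arrangement of libraries was found in 1817 of the 14041 genes past the count minimum (12.9%). The difference in direction was not tested for the 72 genes, because they were chosen for it. With 2 libraries of a line, and lines grown from single clones, hairpin and clone cannot be told apart.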

How the results depend on the processing

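The number of members moved from 72 to 201 at a 1.5-fold threshold, to 15 at 3-fold and to 35 with 1 CPM added in place of 0.2. It was 82 with 0.1 CPM added, 76 and 60 with count minimums of 10 and 50, 68 with TMM scaling (67 of them shared) and 65 with DESeq2 size factors (64 shared). Leaving out a library gave 66 to 78 members. Of the 72, 33 stayed inside the threshold in all 10 settings of scaling, added constant and left-out library, and 0 changed direction in them. Members called in shHMGA2-1, shHMGA2-2 and both in opposite directions numbered 54, 67 and 51 with DESeq2 and 69, 71 and 68 without the filter on low counts. With a library left out, the same genes being kept, they ranged from 55 to 70, 66 to 71 and 50 to 64. A replicate block gave 69, 71 and 68. Shares of all genes called in these settings are not given here. A drop in members called thus cannot be told from fewer calls over all genes. Deviations of same-numbered libraries correlated at -0.0218, 0.00213 and -0.1 between lines, so no strong shared shift was seen. With 2 libraries of a line, this cannot show whether same-numbered libraries were handled together. The pooled comparison called 0 members in each setting run. In members whose lower line is at or under 3 counts, depth limits how far the fall can be read. The per-gene settings and the kept genes were chosen after seeing the data.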
